A study of Arabidopsis thaliana with 12 samples.

Results

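The leaf transcriptome of Arabidopsis thaliana seedlings raised with PS-SO3H nanoplastics was compared with that of leaves from seedlings raised without particles. Every gene row of the authors' deposited table for this comparison was used, which held 23529 of the 24912 genes listed in the series. The seedlings were wild type Col, 10 days old and grown on MS medium, and the treated ones received PS-SO3H at 50 ug/ml. PS-SO3H particles are polystyrene nanoplastics bearing sulfonic acid groups, as their name gives them. The comparison rested on 4 of the 12 libraries of the series, 2 of leaf control and 2 of leaf PS-SO3H, and nothing in the labels says whether the 2 libraries of a group came from separate plants or cultures. The p-values may therefore measure technical spread alone. Root of the same genotype, age and dose, and leaf treated with the particle bearing amino groups (PS-NH2, 50 ug/ml), were used below where the response of leaf to PS-SO3H was set against another.

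Levels are the fitted values that the authors gave for each group, in reads scaled by a library factor and not divided by gene length unless given per kb. Fold changes are log2 of PS-SO3H over control, and each level, fold change and adjusted p against control given here comes from the authors' deposited tables. Most fold changes are followed by their standard error (SE), back-calculated from the fold change and its p-value, and some are given without it. A gene is said to have risen or fallen if its adjusted p lay below 0.05 in that table. The tables give 1 fitted level per group and no value per library, which leaves read depth unknown, and whether single libraries of the groups overlapped cannot be read from them.

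Plants respond to wounding, microbes and chemicals with layered transcript programmes. Transcription factors of the ERF, WRKY, NAC and zinc finger families and calmodulin-like proteins are among the earliest transcripts to appear after many stimuli. The hormone jasmonate acts by removing JAZ repressor proteins from MYC factors, and JAZ genes are themselves targets of MYC factors. Glucosinolates are sulfur-rich defence compounds of the mustard family, made from amino acids and cut by myrosinases on tissue damage. Foreign or damaged small molecules are met by tau-class glutathione S-transferases, UDP-glycosyltransferases (UGTs) and efflux transporters.

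The tissue label was checked against marker genes. The 5 highest levels belonged to genes of the photosynthetic apparatus, among them RBCS1A, a small subunit of Rubisco, at 392726 and 443144 in control and PS-SO3H (353807 and 399228 per kb), and CAB1, a chlorophyll-binding protein, at 308577 and 331900.0. RBCS3B, the Rubisco activase gene RCA and the chlorophyll-binding protein gene LHB1B2 completed the 5. None of the 6 green tissue markers changed, and their summed level was 1234830 in control and 1247050 with PS-SO3H. The 9 root markers summed to 1373 and 1300.0, mostly from SCR (904 and 809) and SHR (402 and 423). The next highest root marker, CASP1, was at 24.3 and 22.0. The 5 seed markers listed summed to 31.5 and 25.0, the 3 guard cell markers to 913 and 954, and the 2 flower markers to 15.0 and 12. No member of the root, seed, guard cell and flower lists was called. In bulk leaf, fewer cells of a type and less RNA per cell cannot be told apart, and this holds for every result below.

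Of the 23529 genes, 1049 (4.46%) changed, 431 upward (1.83%) and 618 downward (2.63%). The median fold change over all genes was -0.00044 on the log2 scale. Genes that rose had a median log2 fold change of 0.75 and genes that fell one of -0.85. A log2 change of at least 2 was reached by 4 of the genes that rose and 18 of those that fell. The genes that fell had a higher median control level (1012) than those that rose (503), against 227 for all genes. The calls depended on level: none of the 4157 genes with a mean level below 10 was called, and the smallest called change was 1.11 between levels of 10 and 50 but 0.39 at levels of 5000 or more, where 10.7% of 692 genes changed.

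**Figure D1:**
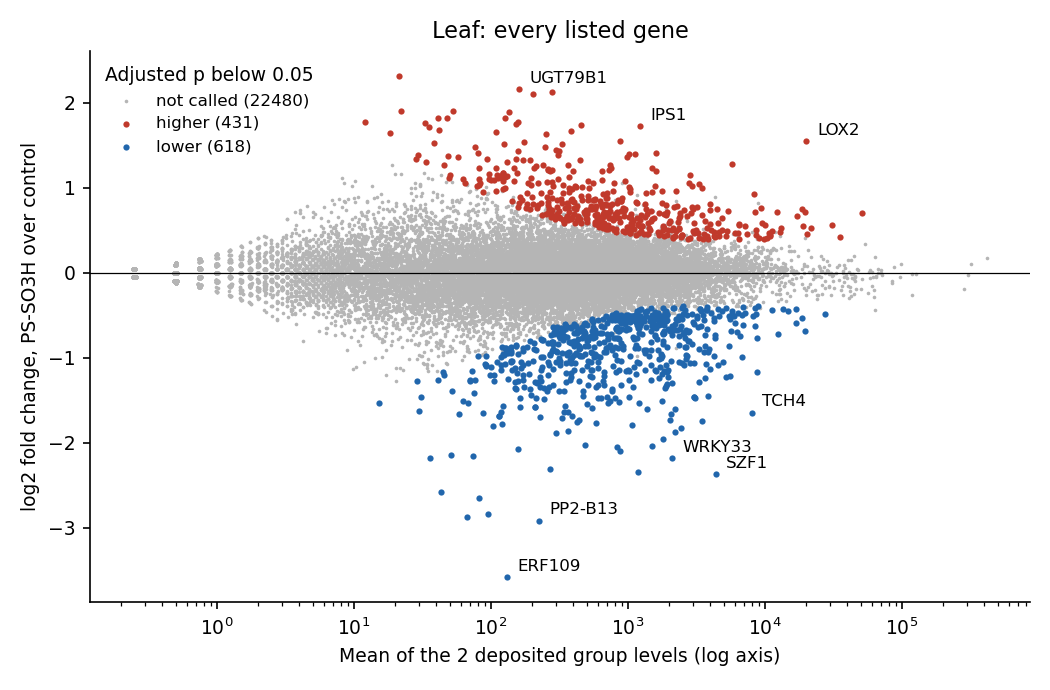
Log2 fold change of PS-SO3H over control in leaf (vertical axis) against the mean of the group levels (horizontal axis, log scale) for the 23529 genes of the authors' deposited table. The 431 genes that rose are red, the 618 that fell are blue and the others grey; most of the changes beyond 2 in size lie below 0, and no gene with a mean level below 10 is coloured.

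The largest decreases included regulators of early stress responses, lectin genes and genes of nitrogen status. ERF109 (AT4G34410), an AP2/ERF factor of redox and wound responses, fell from 243 to 20.3, a log2 fold change of -3.58 ± 0.31 (SE) with an authors' adjusted p of 7.85e-27. The adjacent genes PP2-B13 (AT1G56240) and PP2-B14 (AT1G56250), which encode phloem protein 2-like lectins, fell from 396 to 52.6 and from 166 to 23.2, with log2 fold changes of -2.91 ± 0.27 and -2.84 ± 0.33. TDR1 (AT3G23230), another ERF gene, fell from 141 to 22.5 (-2.65 ± 0.34). NRT2.5, a high-affinity nitrate transporter, fell from 121 to 27.3 (-2.15 ± 0.34), and CNI1 (AT5G27420), a ubiquitin ligase linked to carbon and nitrogen balance, from 779 to 192 (-2.02 ± 0.18). All 6 of these genes lay below -2 on the log2 scale, from control levels between 121 and 779. PP2-B13 and PP2-B14 are close copies, and reads may have been shared between them.

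The largest increases included genes of glycosylation, efflux and the transport of sugars and lipids. UGT79B1 (AT5G54060), a glycosyltransferase of anthocyanins, rose from 58.4 to 261 (log2 fold change 2.16 ± 0.27, adjusted p 1.91e-13). AT2G04050, a MATE-type efflux family gene, rose from 76.1 to 328 (2.11 ± 0.27), and its neighbour DTX1, a MATE transporter able to export toxic compounds, from 184 to 586 (1.67 ± 0.23). SAG29 (AT5G13170), a SWEET-type sugar transporter named for senescence, rose from 22.1 to 82.9 (1.91 ± 0.37). LTP3, a lipid transfer protein, rose from 70.1 to 235 (1.75 ± 0.27) and EXPA16, an expansin of cell wall loosening, from 169 to 486 (1.52 ± 0.20). BCA3, a beta carbonic anhydrase, rose from 123 to 382 (1.63 ± 0.22). ORS1 (AT2G41230), which the deposited table leaves uncharacterised, rose from 40.5 to 113 (1.48 ± 0.32).

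A list of 48 stress-responsive transcription factor and zinc finger genes held 27 that fell, 1 that rose and 20 that did neither, with a median log2 fold change of -0.84 against -0.00044 for all genes. Read against the 2.63% of all genes that fell, 56.3% of this list fell. This list and those below were chosen with earlier results of these data known. Their shares are therefore descriptions, and a high share is no test of a list. The AP2/ERF group held 11 genes that fell of 15. ERF6 (AT4G17490), an ethylene response factor acting in oxidative stress and leaf growth, fell from 1972 to 388 (-2.35 ± 0.16). ERF13 fell from 186 to 54.3 (-1.78 ± 0.34) and ERF11, a repressor-type factor, from 521 to 176 (-1.56 ± 0.23). The cold-response factors CBF1 and CBF2 had fold changes of -1.04 ± 0.43 and -0.92 ± 0.37 and did not pass the test.

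Among the 16 WRKY genes of that list, 7 fell (43.8%, against 2.63% of all genes) and none rose. WRKY33 (AT2G38470), a regulator of camalexin synthesis and resistance to necrotrophic fungi, fell from 3435 to 758 (-2.18 ± 0.14, adjusted p 1.17e-48). WRKY40, a repressor in immunity and abscisic acid signalling, fell from 1345 to 326 (-2.04 ± 0.19), while its close relative WRKY60 stood at 0.37 ± 0.32 and was not called. WRKY11 fell from 1269 to 442 (-1.52 ± 0.17) and WRKY53, a senescence regulator, from 378 to 149 (-1.35 ± 0.23). WRKY15, at 2735 and 2111 in control and PS-SO3H, was not called (-0.37 ± 0.14). Of the 64 listed genes named WRKY, 9 fell (14.1%) and 2 rose (3.13%, against 1.83% of all genes). The median of the family was -0.0011.

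Zinc finger genes fell in part. Called lower were 4 of 7 ZAT and AZF repressors (57.1%, against 2.63% of all genes) and both tandem zinc finger genes. SZF1, a salt-inducible tandem zinc finger gene, fell from 7309 to 1416 (-2.37 ± 0.16), and SZF2 from 2324 to 1306 (-0.83 ± 0.14). ZAT11 fell from 74.5 to 12.5 (-2.57 ± 0.40). ZAT10 had a similar estimate to others of the group, -1.12 ± 0.39, but with an adjusted p of 0.0716 it was not called. The NAC factors were mixed: RD26, NAC055 and ATAF2 fell, with log2 fold changes of -0.71, -0.84 and -0.65, whereas NAC013, a factor of mitochondrial retrograde signalling, rose from 166 to 295 (0.83 ± 0.23).

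Calcium and kinase signalling genes fell in part, 5 of 14 (35.7%, against 2.63% of all genes) with none rising (median -0.54). MPK3, a MAP kinase of immune and stress signalling, fell from 4466 to 1626 (-1.46 ± 0.13), while MPK6, its partner kinase, was at 1336 and 1472 and was not called (0.14 ± 0.14, adjusted p 0.914). The calmodulin-like genes CML38, TCH2 and TCH3 had log2 fold changes of -1.18, -1.0 and -0.68, all called lower. AP2C1, a phosphatase that acts on stress MAP kinases, fell from 517 to 256 (-1.01 ± 0.21). TCH4, a touch-induced xyloglucan-modifying enzyme outside the lists, fell from 12118 to 3879 (-1.64 ± 0.16).

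Members of several families of ubiquitin ligases, disease resistance proteins, transporters and hormone enzymes also fell, and these families were picked out after their counts were seen. Of 22 PUB genes, which encode U-box ubiquitin ligases, 6 fell and none rose. PUB23, a negative regulator of immune signalling, fell from 657 to 195 (-1.75 ± 0.19), and PUB22, PUB24, PUB25, PUB26 and PUB17 were the other members that fell. ACS6, ACS7 and ACS11, genes of ACC synthase, the enzyme of the ethylene precursor, were the 3 of 11 genes with an ACS symbol that fell, a prefix also given to an acetyl-CoA synthetase, with log2 fold changes of -1.14, -0.95 and -1.08. Of 89 genes that the deposited table describes as TIR-NBS disease resistance genes, 22 fell and none rose, with a median of -0.20. Of 41 genes with a CRK symbol, most of which encode cysteine-rich receptor-like kinases, CRK2, CRK10, CRK40 and CRK41 fell and none rose. AT3G44630 of the TIR-NBS group fell from 3126 to 992 (-1.66 ± 0.16). Purine permease genes fell in 3 of 17 cases, among them PUP14, an importer of cytokinin, from 6184 to 2924 (-1.08 ± 0.14), PUP18 from 7294 to 3131 and PUP7 from 1064 to 368. The shares that fell were 27.3% of PUB, 27.3% of ACS, 24.7% of TIR-NBS, 9.76% of CRK and 17.6% of purine permease genes. Over all genes 2.63% fell. Resistance genes and permeases stand partly in tandem arrays of close copies, so reads may have been shared between members and their single values are uncertain.

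Jasmonate genes moved in both directions. Of 38 genes, 15 fell (39.5%, against 2.63% of all genes) and 7 rose (18.4%, against 1.83%), with a median of -0.09. The changes among repressors and factors were all decreases, those among output genes were all increases, and synthesis and turnover genes had both. Among the JAZ repressors 8 of 12 fell and none rose (median -0.83). JAZ7 fell from 447 to 90.6 (-2.30 ± 0.24), JAZ8 from 83.3 to 18.9 (-2.14 ± 0.37) and JAZ10 from 896 to 263 (-1.77 ± 0.20). JAZ11 and JAZ12 had positive estimates without a call, 0.23 ± 0.25 and 0.10 ± 0.15. Of the factors, MYC2, the main activator of jasmonate responses, fell from 4421 to 1609 (-1.46 ± 0.13), as did the related repressor JAM1 (-1.14) and ORA59, an ERF factor of the jasmonate and ethylene branch (-0.68). MYC3 and MYC4, which overlap with MYC2 in function, were at -0.09 ± 0.14 and 0.07 ± 0.17 and were not called.

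The synthesis enzymes split within gene families. LOX2 (AT3G45140), a plastid 13-lipoxygenase, rose from 10227 to 29959 (1.55 ± 0.16, adjusted p 3.01e-18), whereas LOX4 (AT1G72520), another 13-lipoxygenase, fell from 2421 to 591 (-2.03 ± 0.15, adjusted p 1.12e-35). LOX2 stood at 3407 and 9979.7 per kb in control and PS-SO3H and LOX4 at 795 and 194 per kb, so the gap between them widened. In the same way AOC2, an allene oxide cyclase, rose from 3334 to 8128 (1.29 ± 0.17), and AOC3 fell from 608 to 308 (-0.98 ± 0.24). The AOC genes are close copies, so reads may have been shared among them. AOS, the allene oxide synthase, rose from 5831 to 8572 (0.56 ± 0.14) and ACX1, an acyl-CoA oxidase of the peroxisomal steps, from 2951 to 4944 (0.74 ± 0.15). OPCL1, a ligase that prepares the precursor for those steps, fell from 3484 to 1641 (-1.09 ± 0.15). OPR3, a reductase of the same pathway, was at 4674 and 4394 and was not called. Of 13 synthesis genes 4 therefore rose (30.8%, against 1.83% of all genes) and 3 fell (23.1%, against 2.63%).

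Of 5 jasmonate output genes, 2 rose (40%, against 1.83% of all genes) and none fell. VSP2, a vegetative storage protein with anti-insect activity, rose from 2309.5 to 4616 (1.00 ± 0.17), and CORI3, a coronatine-induced aminotransferase-like gene, from 902 to 2119 (1.23 ± 0.35). VSP1 had a near estimate, 0.80 ± 0.40, with an adjusted p of 0.37. The defensin gene PDF1.2A was at 0.16 ± 0.41 and was not called. JMT, which methylates jasmonate, rose from 61.7 to 133 (1.11 ± 0.31), and CYP94C1, which oxidises its active conjugate, fell from 907 to 475 (-0.93 ± 0.21).

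**Figure D2:**
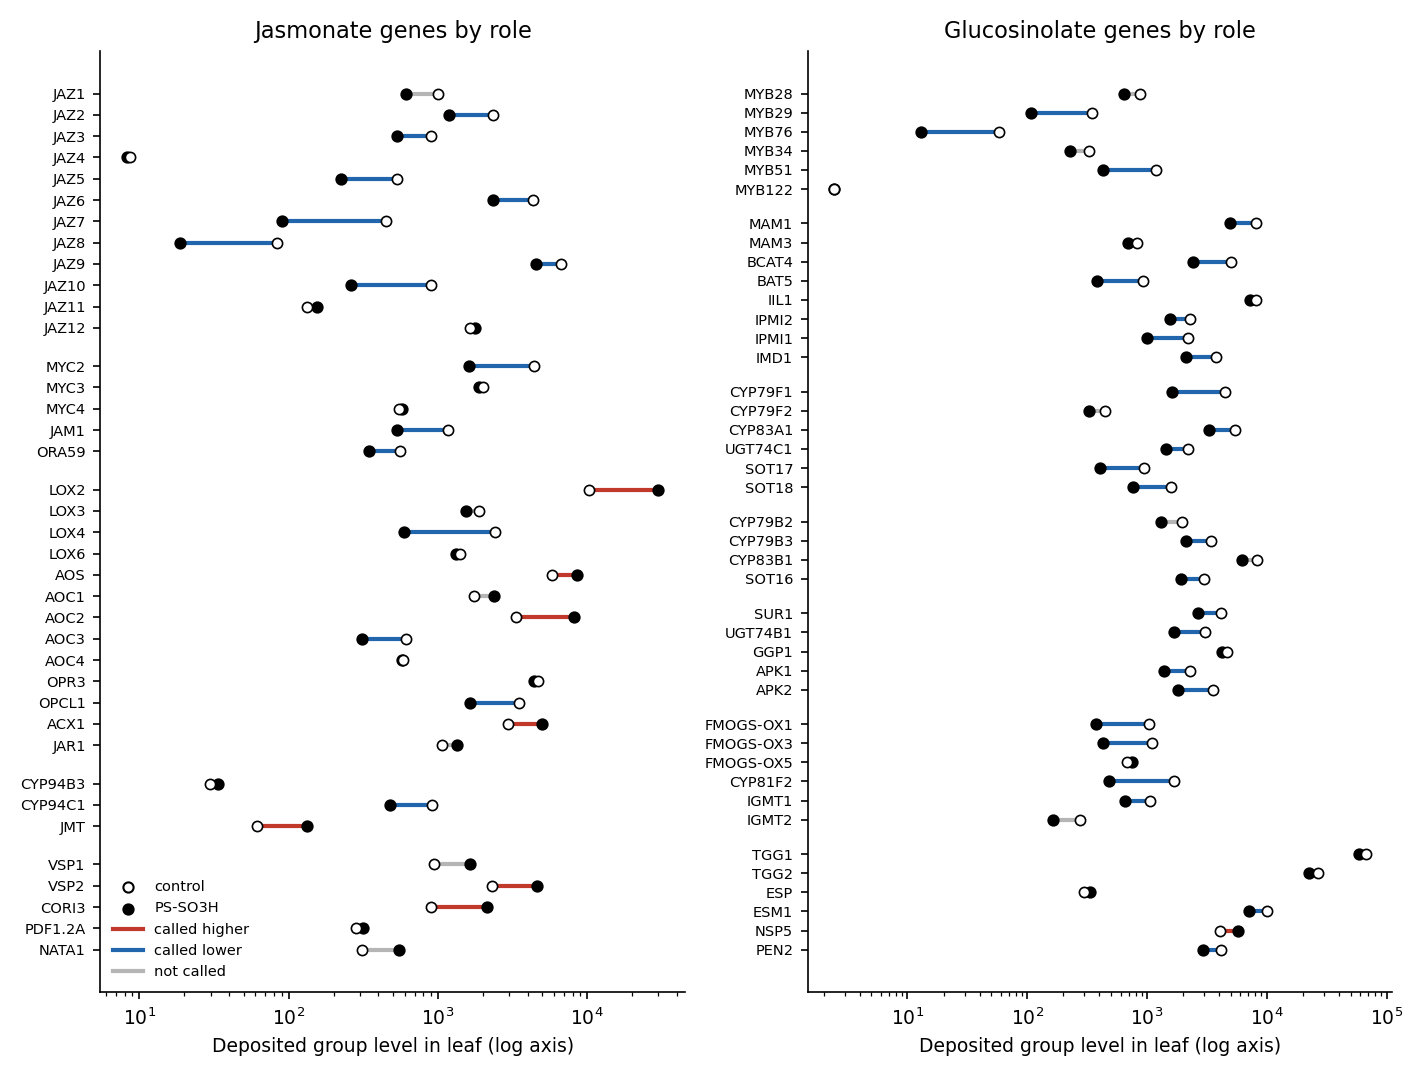
Fitted level in leaf of the 38 jasmonate and 41 glucosinolate genes (horizontal axis, log scale), with an open point for control and a filled point for PS-SO3H, 1 row per gene. LOX2 moves to the right from 10227 to 29959 and LOX4 to the left from 2421 to 591, while 26 of the glucosinolate genes fell and NSP5 alone rose.

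Glucosinolate genes fell in every role of synthesis. Of 41 genes 26 fell (63.4%, against 2.63% of all genes) and 1 rose, with a median of -0.68. Among the MYB regulators, MYB76 (AT5G07700) fell from 58.5 to 12.9 (-2.18 ± 0.41), MYB29 (AT5G07690) from 347 to 108 (-1.69 ± 0.23) and MYB51 from 1192 to 429 (-1.47 ± 0.16). MYB29 and MYB76 control aliphatic glucosinolates from methionine, and MYB51 those from tryptophan. MYB28, the main aliphatic regulator, stood at -0.43 ± 0.19 and MYB34, an indole regulator, at -0.53 ± 0.20, both without a call.

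Side-chain elongation of methionine held 6 of 8 genes that fell (75%, against 2.63% of all genes). BAT5 (AT4G12030), a plastid transporter of the keto acid intermediates, fell from 928 to 385 (-1.27 ± 0.16), BCAT4, the first aminotransferase, from 5028 to 2395 (-1.07 ± 0.12), and IPMI1, an isomerase subunit, from 2211 to 990.4 (-1.16 ± 0.15). In the aliphatic core pathway 5 of 6 genes fell, led by CYP79F1, which makes the aldoxime, from 4501 to 1622 (-1.47 ± 0.13). The sulfotransferases of the last core step, SOT17 and SOT18, fell from 940.4 to 404 and from 1569 to 759. CYP79F1 and CYP79F2 are near copies, and CYP79F2 was not called (-0.45 ± 0.18). The genes that fell thus included both entry and final steps of the pathway.

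Of the 5 genes shared by both branches 4 fell (80%, against 2.63% of all genes). UGT74B1, the S-glucosyltransferase, fell from 3027 to 1678 (-0.85 ± 0.13), SUR1, the C-S lyase, from 4151 to 2681 (-0.63 ± 0.13), and APK2, an adenosine phosphosulfate kinase that supplies the sulfate donor, from 3524 to 1801 (-0.97 ± 0.13). The indole core enzymes had smaller changes, with CYP79B3 and SOT16 lower (-0.69 and -0.63) and CYP79B2 (-0.59 ± 0.19) and CYP83B1 (-0.40 ± 0.16) not called. CYP81F2, which modifies indole glucosinolates in defence, fell from 1668 to 481 (-1.79 ± 0.18). The S-oxygenase genes FMOGS-OX1 and FMOGS-OX3 fell (-1.46 and -1.37), whereas FMOGS-OX5 had a fold change of 0.13 ± 0.16.

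Breakdown genes were mixed, with 2 of 6 lower (33.3%, against 2.63% of all genes) and 1 higher (16.7%, against 1.83%). The myrosinases TGG1 and TGG2, at high levels of 66826 and 58338 and 26619 and 22234 in control and PS-SO3H, were not called (-0.20 ± 0.12 and -0.26 ± 0.15). PEN2, an atypical myrosinase of pathogen entry control, fell from 4109 to 2904 (-0.50 ± 0.14) and ESM1, a modifier of the breakdown products, from 9970.2 to 7110.1 (-0.49 ± 0.13). NSP5, a nitrile specifier protein, was the only member of the list that rose, from 4029.8 to 5741 (0.51 ± 0.13).

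Sulfate assimilation supplies the sulfur of glucosinolates and glutathione. Of its 7 enzyme genes 4 fell (57.1%, against 2.63% of all genes), with a median of -1.05. All 3 genes of APS reductase, the controlling step of assimilation, fell, with APR1 from 3800.0 to 1069 (-1.83 ± 0.15), APR3 from 5574 to 2041 (-1.45 ± 0.19) and APR2 from 6643 to 3209 (-1.05 ± 0.16). APS3, an ATP sulfurylase, fell from 3355 to 1608 (-1.06 ± 0.16), but APS1, another ATP sulfurylase, and the sulfite reductase SIR were at 0.08 ± 0.12 and -0.01 ± 0.12 without a call. Of 5 sulfate transporters only SULTR2;1 changed, with a log2 fold change of -0.45. Genes known as markers of sulfur limitation did not move together. BGLU28, a beta-glucosidase, rose from 88.9 to 258 (1.54 ± 0.25), whereas AT1G04770 fell from 575 to 158 (-1.86 ± 0.24), SHM7, a serine hydroxymethyltransferase, from 2348 to 999 (-1.23 ± 0.16), and LSU2 from 294 to 172 (-0.77 ± 0.25). SDI1 and LSU1 were not called, at -0.28 ± 0.24 and 0.84 ± 0.30.

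Part of the detoxification genes rose. Of 37 genes 15 rose (40.5%, against 1.83% of all genes) and 1 fell, with a median of 0.41. Of 20 tau-class glutathione S-transferases 6 rose, and GSTU20, which has been linked to glucosinolate synthesis, fell from 7425 to 5368 (-0.47 ± 0.12). GSTU24 rose from 85.3 to 231 (1.43 ± 0.27), GSTU4 from 168 to 389 (1.21 ± 0.28), and GSTU19 from 8926 to 11834 (0.41 ± 0.12). Tau-class genes and the MATE genes at AT2G04050 and DTX1 stand in tandem arrays, so reads may have been shared between neighbours. Among glycosyltransferases of xenobiotics, UGT73C1 rose from 52.1 to 164 (1.66 ± 0.30), UGT73B4 from 53.4 to 135 (1.34 ± 0.32) and UGT74E2 from 110.2 to 278 (1.33 ± 0.31). OPR2, a reductase of unsaturated carbonyl compounds, and AER, an alkenal reductase, rose by smaller amounts, 0.76 and 0.47. CYP81D11, a chemical-induced cytochrome P450, rose from 329 to 593 (0.85 ± 0.25), while CYP81D8, OPR1 and AOX1D, which respond to many of the same chemicals, were not called, at 0.28 ± 0.38, 0.30 ± 0.12 and 0.16 ± 0.41.

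The increase of UGT genes reached beyond the list. Of 56 genes whose reference symbol begins with UGT, 18 rose (32.1%, against 1.83% of all genes) and 1 fell. The gene that fell was UGT74B1 of glucosinolate synthesis, and 44 of the 56 had a fold change above 0. UGT74C1 (AT2G31790), also of glucosinolate synthesis and not counted there because the reference gives it no such symbol, fell too (-0.61 ± 0.13). Wider definitions gave smaller shares. Of 120 genes taken as UDP-glycosyltransferases by their description, 22 rose (18.3%) and 4 fell (3.33%, against 2.63% of all genes), with a median of 0.10. Of 78 genes listed under UDP-glycosyltransferase activity, 6 rose (7.69%) and 2 fell (2.56%). Among families of 8 or more genes, BGLU genes, which encode beta-glucosidases, rose in 6 of 34 cases and fell in 1, BGLU40 (-0.89), and SWEET sugar transporter genes rose in 3 of 12, namely SWEET4 (1.37), SWEET11 (0.49) and SWEET12 (0.51), with SWEET10 lower (-0.82). SAG29 is a further member of the SWEET family under another name in the reference.

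**Figure D3:**
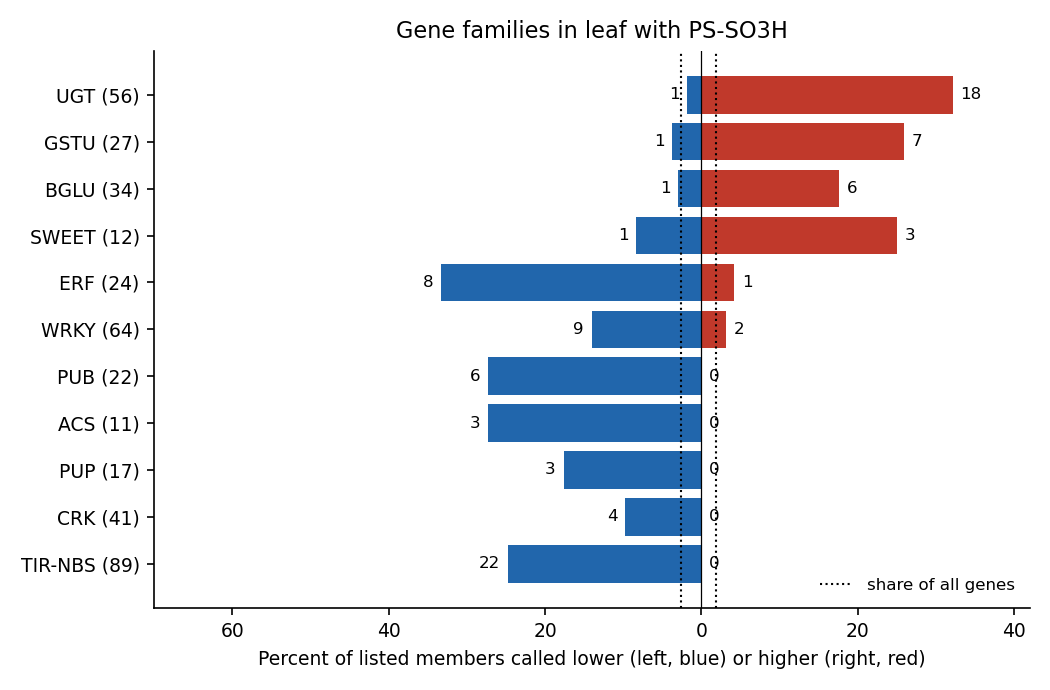
Percent of the members of 11 gene groups, 10 formed by the letters of the reference symbol and TIR-NBS by description, that fell (blue, to the left) or rose (red, to the right) in leaf with PS-SO3H, with dotted lines at the shares over all genes, 2.63% and 1.83%. Called members of UGT, GSTU, BGLU and SWEET mostly rose, and those of ERF, WRKY, PUB, ACS, PUP, CRK and TIR-NBS mostly or all fell. In each group most members were not called, and the medians of all WRKY, BGLU and SWEET members were -0.0011, 0.03 and 0.02.

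Late genes of flavonoid synthesis rose in part. Of 9 late genes, among which UGT78D1 belongs to the flavonol branch, 6 rose (66.7%, against 1.83% of all genes) and none fell (median 1.11). By contrast, 0 of 5 early genes and 0 of 7 regulators changed. DFR, the dihydroflavonol reductase at the branch point, rose from 255 to 641 (1.33 ± 0.20), and LDOX, the next enzyme, from 159.8 to 437 (1.45 ± 0.21). Besides UGT79B1, AT4G14090, which the table describes as a putative glucosyltransferase, rose from 132 to 368 (1.48 ± 0.22), 5MAT, a malonyltransferase, from 70.6 to 153 (1.11 ± 0.28), and GSTF12, which carries anthocyanins towards the vacuole, from 94.8 to 201 (1.08 ± 0.28). CHS, chalcone synthase at the entry, was at 7099 and 7833 and was not called (0.14 ± 0.14). The MYB factors PAP1 (AT1G56650) and PAP2 (AT1G66390), which activate the late genes, had negative estimates without a call, -0.59 ± 0.39 and -0.87 ± 0.42, and TT8, their bHLH partner, had 1.16 ± 0.42 with an adjusted p of 0.0984. FLS1 and UGT78D1, both of flavonol synthesis, were at -0.35 ± 0.17 and -0.05 ± 0.13, also without a call.

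Phosphate genes rose in 4 of 19 cases (21.1%, against 1.83% of all genes) and none fell (median 0.24). IPS1, a non-coding RNA that sequesters a microRNA of phosphate control, rose from 571 to 1894 (1.73 ± 0.18), and AT5G03545, a related RNA, from 444 to 1299 (1.55 ± 0.18). RNS1, a secreted ribonuclease, rose from 126 to 300.1 (1.25 ± 0.28), and SQD1, of sulfolipid synthesis, from 2849 to 3801 (0.42 ± 0.13). SPX1 and SPX3, sensors of phosphate status, were at 0.21 ± 0.26 and 0.45 ± 0.39, and the phosphatase gene PAP17 at 0.36 ± 0.21, none of them called.

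Abscisic acid and cold genes rose in 5 of 21 cases (23.8%, against 1.83% of all genes), and 1 fell (4.76%, against 2.63%). The increases lay mostly in protective proteins, 4 of 12, with KIN2 from 549 to 1411 (1.36 ± 0.20), KIN1 from 20.9 to 74.0 (1.82 ± 0.37), RD20, a lipid-body calcium-binding protein, from 79.0 to 172 (1.12 ± 0.28), and LTI30, a dehydrin, from 53.5 to 109.9 (1.04 ± 0.32). KIN1 and KIN2 are adjacent near copies. RD29A, RAB18 and COR15A were not called, at 0.35 ± 0.20, 0.70 ± 0.25 and 0.43 ± 0.25. CYP707A3, which breaks down abscisic acid, fell from 505 to 155 (-1.71 ± 0.21), while NCED3, of its synthesis, stood at -0.41 ± 0.39 without a call.

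Salicylic acid genes had 2 members of 12 that rose (16.7%, against 1.83% of all genes) and 1 that fell (8.33%, against 2.63%). PR5 rose from 629.8 to 1135 (0.85 ± 0.16) and DLO1, which hydroxylates salicylic acid, from 129 to 264 (1.03 ± 0.30), while CBP60G, an activator of its synthesis, fell from 575 to 309 (-0.90 ± 0.19). PR1 and PR2 had fold changes of 0.75 ± 0.43 and 0.90 ± 0.41 with adjusted p-values of 0.518 and 0.289, and the 95% interval of PR1 ran from -0.09 to 1.59. Of the 8 genes of sugar status only DIN2, a beta-glucosidase induced in darkness, changed, rising from 16.4 to 54.1 (1.72 ± 0.42).

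In 3 lists no member was called. Of the 14 auxin genes, IAA1 and IAA19, early-response repressors, had the most negative estimates, -0.83 ± 0.31 and -0.78 ± 0.26, and the list median was -0.30. Of the 14 iron genes, the iron-deficiency peptides at AT1G47400 and AT1G47395 had 0.95 ± 0.33 and 0.87 ± 0.30, and FER1, a ferritin, -0.14 ± 0.13. Of the 6 genes of protein folding stress in the endoplasmic reticulum, the chaperone gene BIP3 had -0.02 ± 0.37 and BIP1 -0.07 ± 0.15. The 95% interval, not adjusted for the number of genes, ran from -1.44 to -0.23 for IAA1 and from -0.75 to 0.72 for BIP3, so a missed call does not show that these genes were unaffected.

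**Figure D4:**
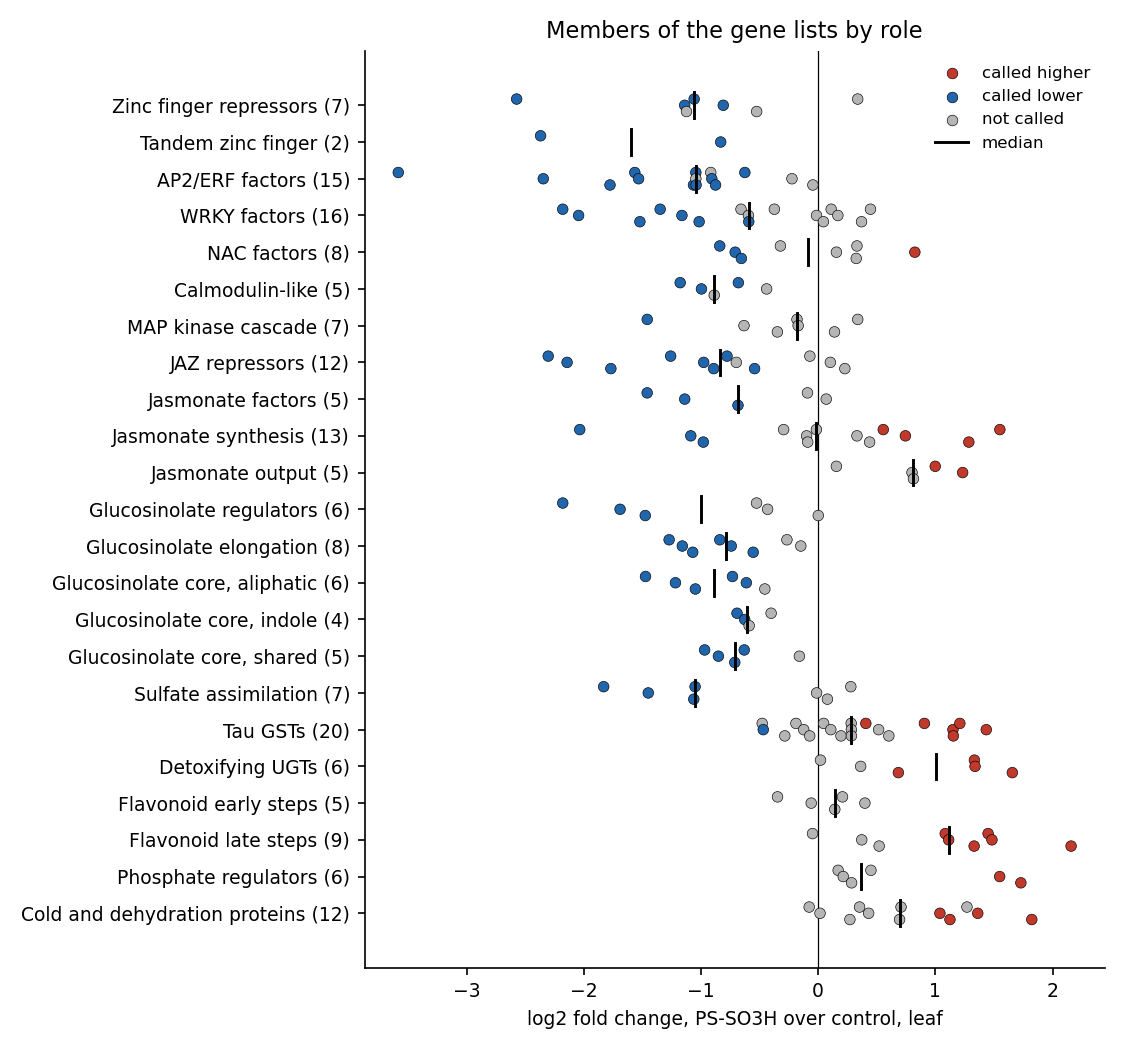
Log2 fold change in leaf (horizontal axis) of list members in the roles shown, red for genes that rose, blue for genes that fell and grey for the others, with a bar at the median of each role. The medians of the JAZ, AP2/ERF and glucosinolate roles lie left of 0, and those of late flavonoid steps and detoxifying glycosyltransferases lie right of it.

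The process names in the deposited table are given as counts chosen after they were seen, and over all genes 2.63% fell and 1.83% rose. Of 250 biological process names with 50 or more genes, "response to external stimulus" had the highest share that fell, 28 of 79 with none rising (median -0.36). "Immune effector process" had 52 of 210 that fell and 3 that rose, and "ethylene metabolic process" 37 of 145 and 2. At the other end, "response to symbiont" had the highest share that rose, 12 of 55 with 3 lower, including the beta-glucosidase genes BGLU21 (from 140.2 to 260.4) and BGLU22 (from 75.9 to 164), the dehydroascorbate reductase DHAR1 (from 5239 to 7788) and the sulfotransferase SOT12 (from 525 to 1023). "Toxin metabolic process" had 29 of 238 that rose and 5 that fell, and "response to water deprivation" 15 of 128 and 4. "Flavonoid biosynthetic process" had 25 of 176 that fell and 12 that rose, and "jasmonic acid metabolic process" 24 of 159 and 12. Of 844 genes named for protein kinase activity, 42 fell and 3 rose.

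Some of the genes that changed in the same direction lay next to each other. Of 426 genes that rose and could be placed, 50 (11.7%) had an adjacent listed gene, in the order of the reference, that also rose, against 3.47% of the genes not called. Of 618 that fell, 61 (9.87%) had a neighbour that fell, against 5.06%. Runs of 3 were ERF2, ERF5 and NUDT8, WRR4 with AT1G56520 and AT1G56540, and AT4G19510 to AT4G19530 among genes that fell, and AT1G52000 with the myrosinase-binding protein genes MBP2 and MBP1, and FH6 with BT4 and AT5G67490, among genes that rose. Some pairs, such as MYB29 and MYB76 or ERF6 and ERF-1, are tandem relatives, and sharing of reads between copies was not tested.

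The response of leaf was set against that of root to the same particle, which shares no library with it. Of 22720 genes in both tables, 576 (2.54%) had a root minus leaf difference of the log2 fold changes with an adjusted p below 0.05 (2-sided normal test on the recovered SEs, Benjamini-Hochberg adjustment over those genes), 371 of them above 0 (1.63%) and 205 below (0.902%). The tables were normalised separately. In root 4.84% of genes changed, 2.88% upward and 1.95% downward. Of the 1041 leaf genes that changed and were listed in root, 183 changed in root, which is 17.6% of the leaf genes and 16% of the 1146 root genes, 146 in the same direction and 37 in the opposite one. The median root fold change was 0.14 for genes that rose in leaf and -0.11 for genes that fell.

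The difference between tissues passed the test for 382 of the 1041 leaf genes (36.7%). In 257 of 614 genes that fell in leaf root lay above leaf, and in 119 of 427 that rose root lay below it. The choice of genes called in leaf favours this direction, so these counts are a description. ERF109 had -1.15 ± 0.36 in root, a difference of 2.43 ± 0.48 (adjusted p 6.66e-05), and TDR1 -0.02 ± 0.31, a difference of 2.63 ± 0.46. ZAT11 stood at 0.02 ± 0.29 in root and JAZ7 at -0.05 ± 0.36, with differences of 2.59 ± 0.49 and 2.26 ± 0.43. TDR1, ZAT11 and JAZ7, which were among the largest decreases in leaf, were thus near 0 in root, and ERF109 had a smaller negative value there than in leaf. The deposited fold change is small for low genes, and whether the levels of these genes in root bear on their values was not tested. In HMT3, a homocysteine S-methyltransferase, the directions were opposite: it fell from 940.2 to 338 in leaf (-1.48 ± 0.17) and had 0.86 ± 0.25 in root.

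Among genes that rose in leaf, LTP3 had -0.65 ± 0.15 in root (difference -2.40 ± 0.31), DIN2 -0.48 ± 0.21 (-2.21 ± 0.47), EXPA16 -0.64 ± 0.35 (-2.16 ± 0.41), SAG29 -0.17 ± 0.38 (-2.08 ± 0.53) and IPS1 -0.32 ± 0.38 (-2.05 ± 0.42). Passing the test was a condition of naming these 5 genes, and of naming ERF109, TDR1, ZAT11, JAZ7 and HMT3 above. Of the 40 glucosinolate genes listed in root, 23 had a called difference. In root 12 of these 40 rose and 4 fell, where in leaf 26 fell. CYP79F1 had 0.70 ± 0.38 in root (difference 2.18 ± 0.41) and BAT5 0.21 ± 0.11 (1.48 ± 0.20). APR1 differed by 1.61 ± 0.17 and MYC2 by 1.24 ± 0.17. Of the 35 detoxification genes listed in root 5 differed, against 2.54% of all genes.

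**Figure D5:**
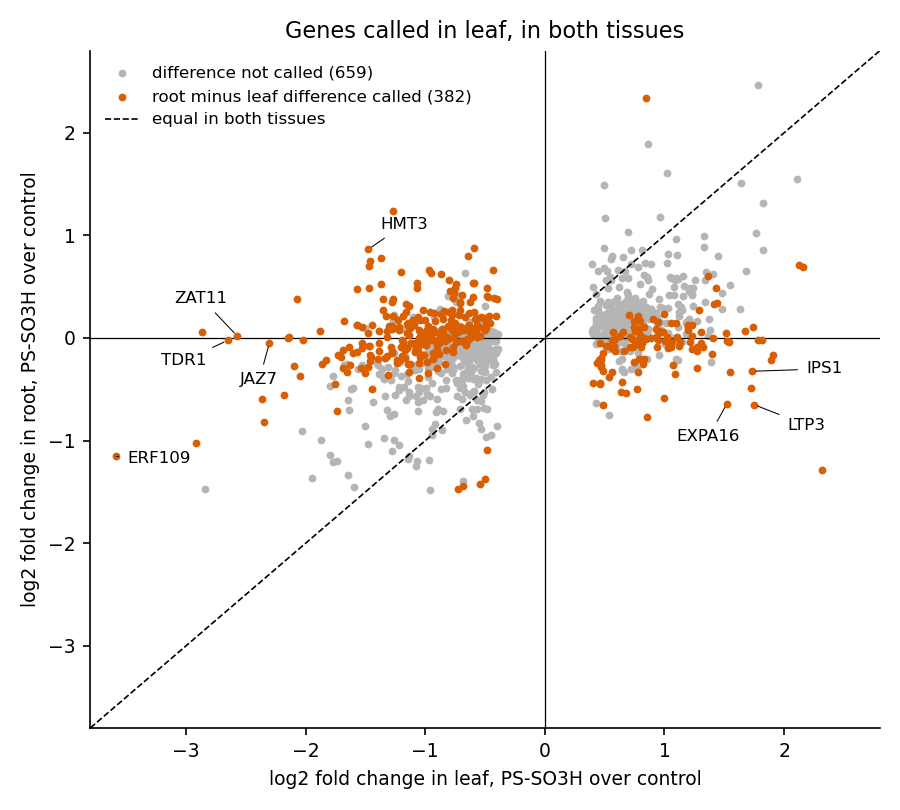
Log2 fold change with PS-SO3H in root (vertical axis) against leaf (horizontal axis) for the 1041 genes that changed in leaf and were listed in root, with a dashed line of equality. The 382 genes whose difference passed the test are orange; TDR1, ZAT11 and JAZ7 lie at -0.02, 0.02 and -0.05 in root.

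PS-NH2 at the same dose was set against PS-SO3H in leaf. Both comparisons share the 2 control libraries, so their fold changes are given side by side, and the SE of a difference, computed as if they were separate, is too large. In leaf 11.2% of genes changed with PS-NH2, 3.79% upward and 7.4% downward. The difference of PS-NH2 minus PS-SO3H passed the same test in 734 of 23150 genes (3.17%), 135 above 0 (0.583%) and 599 below (2.59%). Of 430 genes that rose with PS-SO3H, 88 were lower with PS-NH2 and 10 higher. Of 618 that fell with PS-SO3H, 63 were lower still and 14 higher. The choice of genes called with PS-SO3H favours values nearer 0 with PS-NH2, so these counts are a description.

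IPS1 rose with PS-SO3H (1.73 ± 0.18) and had -0.60 ± 0.57 with PS-NH2, a difference of -2.33 ± 0.60 (adjusted p 0.00643), and ORS1 had 1.48 ± 0.32 and -1.29 ± 0.51, a difference of -2.77 ± 0.60. DTX1 had 1.67 ± 0.23 and -0.16 ± 0.34 (difference -1.83 ± 0.41), and BCA3 1.63 ± 0.22 and 0.24 ± 0.28 (-1.39 ± 0.36). In these 4 genes the fold change with the amino particle was therefore lower than the increase seen with the sulfonic acid particle. WRKY33 fell with both, at -2.18 ± 0.14 and -3.18 ± 0.14, with a difference of -1.0 (adjusted p 0.000115). LOX4 had -2.03 ± 0.15 and -2.90 ± 0.16 (-0.87 ± 0.22). Of the 12 salicylic acid genes 10 had a called difference below 0, against 2.59% of all genes. Among them was PR1 at 0.75 ± 0.43 and -2.32 ± 0.57 (difference -3.07 ± 0.71, adjusted p 0.00136). Other lists held such genes too, with 10 of 19 phosphate, 14 of 48 transcription factor and 10 of 37 detoxification genes. In these 4 lists only 1 gene, of the transcription factor list, had a called difference above 0. ERF109 had -3.58 ± 0.31 and -4.31 ± 0.37, a difference of -0.73 ± 0.48 that did not pass (adjusted p 0.937). UGT79B1 had 2.16 ± 0.27 and 1.72 ± 0.31, a difference of -0.43 ± 0.41, also without passing.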

How the data were processed

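RNA was extracted with Trizol and copied with random primers for Illumina sequencing, per the labels' protocols, and per the submitters' processing notes the genome build was TAIR 10. The series text also describes a small RNA library and a test without replicates, which does not match the deposited tables, and the aligner, counter and handling of strand and of multi-mapping reads are not given here. The authors deposited 4 tables, labelled as made by a DESeq2 method, and 3 of them were used. The deposited level is a signal fitted by the authors per group from scaled reads. The deposited log2 fold change equals the log2 ratio of the levels and is small for low genes. The p-value and adjusted p are the authors' own, as deposited. No value per library is given, so a count test planned for counts per library was not run.

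The SE is the size of the fold change divided by the normal quantile of the p-value, and it had a median of 0.208. Differences between tables were tested with a 2-sided normal test and Benjamini-Hochberg adjustment over all shared genes. The calculation was tested on simulated data. Symbols were matched by locus to the TAIR10.1 reference (23334 loci found), and no coordinates or sequences are given, because that build is not the one the submitters name. Of genes with a mean level of at least 50, 26 share their values with another gene, 2 of them called, and none of these is named.

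The 14 gene lists and 5 marker lists (339 members, 338 listed) were chosen with earlier results of these data known, so they are descriptions and no test was run over them. Genes were named by a rule: the 12 highest and 12 lowest fold changes among called genes that had a reference symbol and whose mean level reached 50, up to 4 called members and 2 not called members with the highest level per list, the 5 highest and 5 lowest root minus leaf differences, and the 5 highest levels. A few genes so chosen are left out of the text for space. Other members, families and process names were chosen after their values were seen. Alternatives were other limits, a level filter, a new p adjustment and re-centring. Python 3.11.15, numpy 2.4.6, pandas 2.3.3, scipy 1.17.1 and matplotlib 3.10.9 were used.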

Additional observations from a re-analysis of the deposited data

Results flagged for a closer look

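These genes changed in leaf with PS-SO3H and their response differed from that of root or from that to PS-NH2, by a 2-sided normal test of the difference with Benjamini-Hochberg adjustment over all shared genes. Root minus leaf differences of the log2 fold change lay below 0 for LTP3 (-2.40), DIN2 (-2.21), EXPA16 (-2.16), SAG29 (-2.08) and IPS1 (-2.05), genes that rose in leaf. They lay above 0 for TDR1 (2.63), ZAT11 (2.59), ERF109 (2.43), HMT3 (2.34) and JAZ7 (2.26), genes that fell in leaf. These 10 were picked as the most extreme of the genes called in leaf and are given as a description of the extremes.

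PS-NH2 minus PS-SO3H differences in leaf were -2.77 for ORS1, -2.33 for IPS1, -1.83 for DTX1 and -1.39 for BCA3, all of which rose with PS-SO3H, and -1.0 for WRKY33 and -0.87 for LOX4, which fell with both particles. IPS1 thus appears in both contrasts. The particle comparisons share their control libraries. No value per library was at hand to look for single libraries apart from the rest.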

How the results depend on the processing

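The counts depended on the limits. Under the limits named in the series text (adjusted p up to 0.001, log2 change of 1 or more in size), 264 genes were called in leaf, 73 higher and 191 lower. With an adjusted p below 0.05 and the same minimum size, 340 were called, 119 higher and 221 lower. With a minimum absolute difference of 1, the root minus leaf difference was called in 305 genes (209 above 0, 96 below) and the particle difference in 456 (28 above 0, 428 below). List counts moved as well: under the strictest limits and under the minimum size alone, glucosinolate genes that fell went from 26 to 12 and 12, jasmonate genes that fell from 15 to 8 and 8 and those that rose from 7 to 2 and 4, the transcription factor list from 27 lower to 16 and 18, and detoxification genes from 15 higher to 6 and 9. Of the 94 genes chosen by the naming rule, called or not, 7 lost their call under the strictest limits and 4 under the minimum size alone. Every other gene given as called with a log2 change under 1 also fails these limits, which exclude small changes by construction. A mean level of at least 50 with p adjusted again gave 1134 calls (467 higher, 667 lower), re-centring on the median gene 1051 (434 higher, 617 lower), and adjusting p again over all genes 1049. The level limit of 50 kept 86 of the 94 genes chosen by the naming rule, each with the same call, and 3 list counts moved. ZAT11, DIN2, MYB76 and KIN1 had a mean level below this limit and were not assessed under it. Among the results still assessed, none reversed under these settings.

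No paired analysis was possible because the tables give no value per library, and for the same reason leaving out each library was not run. A small p therefore does not show that both libraries of a group moved alike. Depth is unknown. At mean levels of 10 to 50 no change under 1.11 on the log2 scale was called, and at 50 to 200 none under 0.75.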

Other observations

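Genes of the plastid genome lay slightly above control as a group. Of 88 listed, 74 had a log2 fold change above 0, with a median of 0.23. Of the 88, 4 rose (4.55%, against 1.83% of all genes) and none fell. Their summed level was 125554 in control and 164438 with PS-SO3H, a ratio of 1.31. The 107 genes of the mitochondrial genome had a median of -0.04, and 40 lay above 0. Genes listed under chloroplast thylakoid had a median of 0.01 over 339 genes, with 6 that rose and none that fell, or 1.77% against the 1.83% of all genes that rose.

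Some genes of peroxisomes and fatty acid breakdown rose. Of 179 genes listed under microbody, 10 rose (5.59%, against 1.83% of all genes) and 5 fell (2.79%, against 2.63%). LACS7, a peroxisomal acyl-CoA synthetase, rose from 719 to 1145 (0.67 ± 0.17) and ECI1, an enoyl-CoA isomerase of unsaturated fatty acids, from 217 to 393 (0.86 ± 0.20). Of 199 genes listed under fatty acid catabolic process, 14 rose and 3 fell (median 0.13). Genes listed under motor activity, which are kinesins and myosins in the main, had a median of -0.32 over 55 genes. Only 4 of these 55 lay above 0, and 3 fell (5.45%, against 2.63% of all genes). Other groups also lay mostly to 1 side, with 84 of 97 genes of the mitochondrial respiratory chain and 134 of 156 of proteasome assembly above 0. Genes that fell had a median length of 1799.5 bases, against 1543 for all listed genes. Whether gene length bears on these shifts was not tested.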
